A study of Homo sapiens with 96 samples.

Results

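The circadian clock genes described here are PER1, PER2, PER3, CRY1, CRY2, NR1D1, NR1D2, DBP, TEF and BHLHE40, 10 entries of the 44659 in a table of raw read counts, taken by their symbols. All 10 passed the filter on low counts, as did 14948 entries in all. The counts came from cytoplasmic RNA of A375 cells, an established line of human skin melanoma driven by a mutated BRAF kinase, sequenced with QuantSeq, an assay that reads close to the poly(A) end so that a transcript gives about the same number of reads whatever its length. Over the 96 libraries, total counts ran from 2381351 to 12520154 with a median of 7143396. Cells were pretreated for 18 h either with DMSO or with 500 nM vemurafenib plus 500 nM cobimetinib, inhibitors of BRAF and MEK that are together named MAPKi. Each pretreatment was then split into 4 arms, which received vehicle, 100 µg/ml cycloheximide (CHX, a blocker of translation elongation), 25 µM triptolide (T, a blocker of transcription) or triptolide added 5 min after cycloheximide (TCHX). Harvests at 0, 1, 3 and 5 h gave 32 groups of 3 libraries. By the protocol given with the samples each harvest time was a batch of its own, so batch and time cannot be told apart wherever a later time is set against 0 h. The labels do not say that the 3 replicates were separate cultures, so p-values measure the spread between these libraries, which may be technical. Less RNA of a gene per cell and fewer cells that express it cannot be told apart in such bulk samples.

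In the mammalian clock, CLOCK and BMAL1 (listed under its older symbol ARNTL) bind E-box sequences and switch on the Period and Cryptochrome genes, whose proteins come back to inhibit that same pair. The same activators drive NR1D1 and NR1D2, which code for the nuclear receptors REV-ERBα and REV-ERBβ and repress ARNTL, and DBP and TEF, which code for basic leucine zipper factors that act through D-boxes. BHLHE40 (DEC1) codes for a repressor that binds E-boxes itself. Most of these messengers are known as short-lived, and PER1 in particular as a gene that answers quickly to serum, cAMP and glucocorticoids. The sampled window of 5 h is shorter than a daily cycle, and no rhythm can be read from it.

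To look for DNA elements of this loop at the members, the promoters listed by RefSeq for GRCh38.p14 were searched, each covering 250 bases before and 50 bases after an annotated start. All 10 genes were in that list, with 14 promoters. The E-box was searched as CACGTG, which reads the same on both strands, the E′-box as CACGTT and the D-box as TTATGTAA or TTACGTAA on both strands, and the cAMP response element as TGACGTCA. The E-box letters stood in 5 of the 14 promoters (PER1, NR1D2, TEF in both of its promoters, and BHLHE40) and in 7.26% of all 35116 promoters. E′-box letters stood in 4 of the 14 (PER2, CRY1, CRY2, NR1D1) against 5.34% of all, and D-box letters in 3 (PER2, PER3, NR1D2) against 1.01% of all. The cAMP response element was in none of the 14 and in 1.85% of all. DBP held none of the searched elements. A window of 81 bases is given for each of the 4 members with E-box letters, since this is the element bound by CLOCK and BMAL1, and for PER3 around its D-box, since it is the member with no call after any blocker when vehicle was the reference. For TEF the first of its promoters is shown. The windows are printed with the motif in capitals and the sequence read along the gene's strand. A match describes letters only and is no evidence that a factor was bound.
PER1: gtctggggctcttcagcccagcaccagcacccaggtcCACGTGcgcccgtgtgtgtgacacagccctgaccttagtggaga
BHLHE40: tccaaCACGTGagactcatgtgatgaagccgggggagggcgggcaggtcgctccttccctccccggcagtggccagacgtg
TEF: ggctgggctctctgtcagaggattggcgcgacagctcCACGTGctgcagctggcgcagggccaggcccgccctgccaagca
NR1D2: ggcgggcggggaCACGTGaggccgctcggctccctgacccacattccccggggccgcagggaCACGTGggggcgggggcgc
PER3: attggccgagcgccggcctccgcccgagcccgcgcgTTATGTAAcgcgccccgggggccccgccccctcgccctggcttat
The PER1 window lies at chr17:8152534-8152614 on the minus strand, within the annotated span of PER1 and of an unnamed gene but outside exons, with its E-box starting 173 bases before the RefSeq start. The BHLHE40 window is at chr3:4979187-4979267 on the plus strand, 245 bases before the start to the first motif base, inside the span of the antisense gene BHLHE40-AS1 but outside its exons. The TEF window (chr22:41367223-41367303, plus strand) and the PER3 window (chr1:7784078-7784158, plus strand) overlap no annotated gene, and their motifs begin 195 and 177 bases before the start. The NR1D2 window (chr3:23945954-23946034, plus strand) belongs to the second NR1D2 promoter, lies within the spans of NR1D2 and NKIRAS1 but outside exons, and holds 2 E-boxes, 155 and 105 bases before the start.

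On GRCh38 (GENCODE release 44), PER1 spans chr17:8140472-8156506, PER2 chr2:238244044-238290102, CRY1 chr12:106991364-107093549, NR1D1 chr17:40092793-40100589 and DBP chr19:48630030-48637379, all on the minus strand. On the plus strand, PER3 spans chr1:7784291-7845177, CRY2 chr11:45847118-45883248, NR1D2 chr3:23945286-23980617, TEF chr22:41367333-41399326 and BHLHE40 chr3:4979437-4985323. An annotated gene on the opposite strand covers the 3′ end of 4 members, namely THRA at NR1D1, SPHK2 at DBP, UTS2 at PER3 and an unnamed RNA gene at PER2. Whether counting used the strand is not given in the sources used here, so reads of these pairs cannot be told apart with certainty. Values of THRA and SPHK2 are given beside results of NR1D1 and DBP. UTS2 did not pass the filter. The partner of PER2 was not examined, and its part in the PER2 counts was not tested.

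Of the 8 melanocyte markers, MITF, SOX10, PMEL, DCT and S100B were above 1 CPM (the count scaled to library size after TMM) in the median DMSO vehicle library, while MLANA, TYR and TYRP1 were near 0. The MAPK target DUSP6 fell from 357 to 1.08 CPM with MAPKi at 0 h, and in DMSO it went from 357 to 184 and 7.86 CPM after 1 and 3 h of triptolide.

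The first comparison asked how the clock genes stood after 18 h of MAPKi, before the blockers. In the vehicle arm at 0 h, DBP and NR1D2 were higher and CRY1 and BHLHE40 lower in MAPKi-treated cells than in DMSO-treated cells, and the other 6 members were not called (edgeR quasi-likelihood test, Benjamini-Hochberg adjusted p under 0.05). Of all genes tested, 22.3% were called higher and 23.6% lower in the same contrast, so 2 and 2 members of 10 are close to that background. The median log2 change was 0.13 over the members and 0.04 over all genes.

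**Figure D1:**
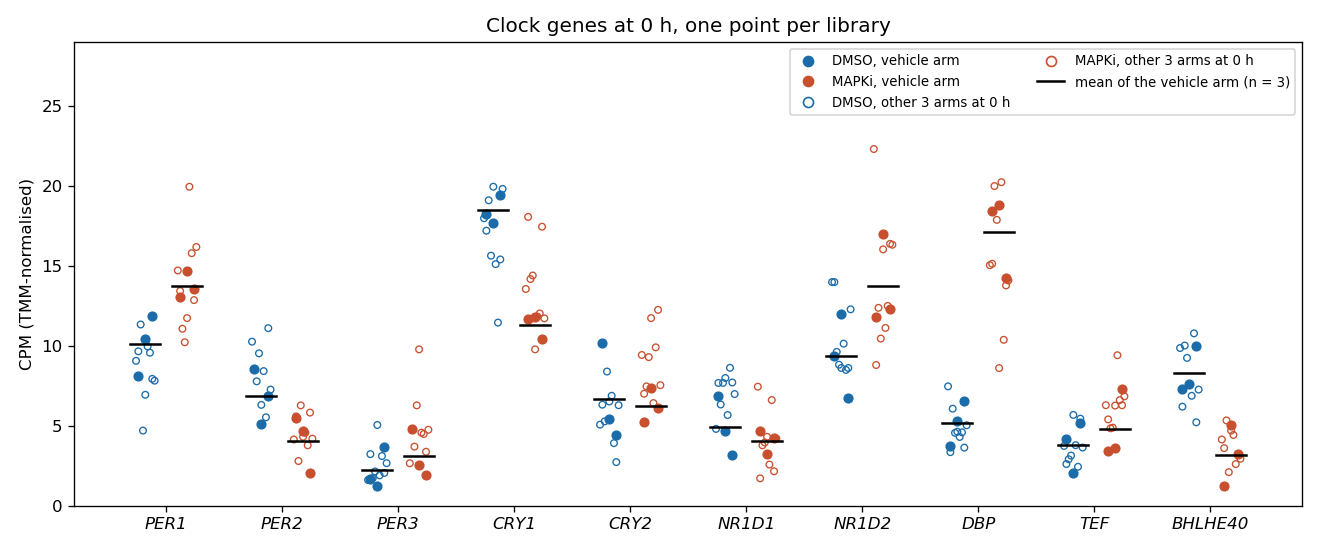
Expression in CPM (y axis, linear, from 0) of each clock gene (x axis) in every library harvested at 0 h, DMSO in blue and MAPKi in red, with filled points for the vehicle arm, open points for the other 3 arms and bars for the vehicle mean. DBP is the gene whose 12 MAPKi libraries, 8.61 CPM and above, all lie over its 12 DMSO libraries, 7.46 CPM and below.

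DBP, a factor that carries the clock's timing to output genes, gave the largest shift of the members. Its level was 3.74, 5.28 and 6.52 CPM in the DMSO libraries and 18.4, 18.8 and 14.2 CPM in the MAPKi libraries, a log2 change of 1.69 ± 0.31 (SE) with an adjusted p of 4.61e-06. The groups did not overlap, and DBP was the one call that held in every alternative tried for this comparison. SPHK2, which overlaps the DBP 3′ end in antisense, also rose, by a log2 change of 0.70 with an adjusted p of 0.00283, from 17.2 ± 3.29 to 27.6 ± 1.76 CPM (SD, n = 3), and its part in the DBP counts was not tested. TEF, the relative of DBP, had 4.16, 2.02 and 5.16 CPM in DMSO and 3.44, 3.58 and 7.32 CPM in MAPKi (log2 change 0.33 ± 0.40, adjusted p 0.535). The TEF libraries overlapped.

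Among the repressors of the loop, CRY1, an inhibitor of CLOCK and BMAL1, went from 18.3, 17.7 and 19.5 CPM in DMSO to 11.7, 11.8 and 10.4 CPM in MAPKi (log2 change −0.71 ± 0.20, adjusted p 0.00182). Every MAPKi library was below every DMSO library. Its paralog CRY2 had 10.2, 5.44 and 4.42 CPM against 5.22, 7.34 and 6.10 CPM, with no call. PER2, a partner of the cryptochromes, had 8.52, 5.13 and 6.84 CPM in DMSO and 5.50, 4.66 and 2.03 CPM in MAPKi, and its log2 change of −0.75 ± 0.32 had an adjusted p of 0.0524. PER2 was therefore just outside the threshold, and DESeq2 called it (adjusted p 0.0468, with 5.35e-08 to 0.471 over the 10 alternatives). PER1 and PER3 had log2 changes of 0.42 ± 0.24 and 0.43 ± 0.43 (adjusted p 0.152 and 0.441).

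BHLHE40 had 7.27, 7.61 and 10.0 CPM in DMSO and 1.24, 5.02 and 3.25 CPM in MAPKi, a log2 change of −1.43 ± 0.41 with an adjusted p of 0.00292. NR1D2 had 9.35, 12 and 6.73 CPM in DMSO and 11.8, 17.0 and 12.3 CPM in MAPKi (0.56 ± 0.24, adjusted p 0.0453), and here the libraries overlapped. NR1D1 had 6.86, 4.66 and 3.16 CPM against 4.67, 3.22 and 4.20 CPM, with no call, although the antisense gene THRA was higher by a log2 change of 1.47 (33.8 ± 1.95 to 93.9 ± 9.84 CPM, SD, n = 3). Without replicate 3, DBP alone of the members was called, and CRY1, BHLHE40 and NR1D2 had adjusted p of 0.0612, 0.0571 and 0.297. Without replicate 2, NR1D2 was lost as well (0.106) and PER2 was called (0.0356). Over the 10 alternatives the adjusted p ran from 1.17e-05 to 0.0612 for CRY1, from 2.22e-07 to 0.0571 for BHLHE40 and from 2.28e-09 to 0.297 for NR1D2.

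At 0 h the blocker arms had been harvested right after dosing, and no member was called in any of the 6 comparisons of such an arm with vehicle (edgeR, smallest adjusted p 0.631). A lack of calls with 3 libraries per group does not show that the arms were alike. The 4 arms at 0 h were also read together, 12 libraries against 12, a choice made after the data had been seen. The test took the 12 libraries as independent, although each arm carries the same 3 replicate numbers, so its p-values may be too small. All 10 members were then called, 6 higher (36.0% of all genes were called higher) and 4 lower (33.6% lower). PER1 (log2 change 0.66), PER3 (0.76), CRY2 (0.47), NR1D2 (0.44), DBP (1.66) and TEF (0.68) were higher with MAPKi, while PER2 (−0.82), CRY1 (−0.40), NR1D1 (−0.69) and BHLHE40 (−1.23) were lower. The sign for CRY2 was opposite to that in the vehicle arm alone, where it was −0.07 ± 0.27. In the pooled arms PER2 was opposite in sign to PER1 and PER3, CRY1 to CRY2, and NR1D1 to NR1D2, while DBP and TEF were both higher. Most genes were called one way or the other in this test, so these signs are given as a description only.

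Of the wider list of 18 clock genes, 15 passed the filter and 7 were called at 0 h, 4 higher and 3 lower, where 22.3% and 23.6% of all genes were. These shares are near the background, and the genes below are given for their own values. NPAS2, which can take the place of CLOCK, fell from 56.1 ± 8.51 to 16.7 ± 5.20 CPM (SD, n = 3; log2 change −1.74, adjusted p 4.94e-11). NFIL3, a repressor at D-boxes, rose from 9.28 ± 1.05 to 32.6 ± 5.58 CPM (1.81, 6.29e-09), and RORA, an activator of ARNTL, from 1.69 ± 0.792 to 5.71 ± 0.366 CPM (1.73, 0.00125). BHLHE41, the paralog of BHLHE40, rose from 33.0 ± 2.44 to 66.7 ± 15.9 CPM (1.02, 4.77e-08), so the DEC pair was called in opposite directions. The kinase gene CSNK1D was higher (0.36, 0.00387), and TIMELESS lower (−0.26, 0.0487). HLF was called lower, but it had at most 6 counts in a DMSO library and 0 in MAPKi, so no fold is given. CLOCK (−0.23, 0.114) and ARNTL (0.73, 0.0526), named with their values seen, were not called.

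The vehicle arm over time showed how steady these levels were without blockers. Between 0 and 5 h no member was called in DMSO (edgeR, 1 with an unadjusted p under 0.05, 0 by DESeq2; 1.07% of all genes were called). In MAPKi 1 member was called, against 3.39% of all genes. This was CRY1, which went from 11.7, 11.8 and 10.4 CPM to 16.9, 20.6 and 17.2 CPM (log2 change 0.69 ± 0.19, adjusted p 0.0283), with no overlap. Without replicate 1, 2 or 3 its adjusted p was 0.107, 0.218 and 0.290, so the call needed all 3 replicates (0.0154 to 0.290 over the 10 alternatives). The change from 0 to 5 h was called different between the pretreatments for no member (edgeR, 0 with an unadjusted p under 0.05, 0 by DESeq2; 0.709% of all genes).

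Several members had higher values at 3 h than at 0 or 5 h, a pattern noticed after the data had been seen and then tested for 3 h against 0 h. NR1D2 in MAPKi had 11.8, 17.0 and 12.3 CPM at 0 h, 29.5, 27.7 and 27.3 CPM at 3 h and 13.7, 17.7 and 18.4 CPM at 5 h. The 3 h libraries lay above all others, with a log2 change of 1.05 ± 0.22 and an adjusted p of 0.00185, and NR1D2 was the 1 member called (1.79% of all genes were called). In DMSO it went from 9.35, 12 and 6.73 to 12.8, 15.5 and 14.7 CPM (0.63 ± 0.23, adjusted p 0.237). PER2 in DMSO had 12.3, 11.2 and 13.1 CPM at 3 h (0.85 ± 0.30 over 0 h, adjusted p 0.191), and PER1 in MAPKi had 19.4, 23.4 and 21.8 CPM against 13.1, 14.7 and 13.6 CPM (0.64 ± 0.23, adjusted p 0.185). No member was called at 3 h in DMSO (edgeR, 2 with an unadjusted p under 0.05; 1.12% of all genes), and none was called different between pretreatments (edgeR, 0 with an unadjusted p under 0.05; 0.288%). DESeq2 was not run for the 3 h comparisons. Each time is 1 batch, so batch and time cannot be told apart for NR1D2.

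The next comparison asked what happened to the clock messengers when translation was blocked, at matched times and thus within a batch. After 1 h of cycloheximide no member was called in either pretreatment (edgeR, 0 with an unadjusted p under 0.05, 0 by DESeq2), as was the case for nearly all genes (0.0803% called in DMSO and 0.0803% in MAPKi). Over 3 and 5 h, the DMSO-treated cells had 6 members called higher and none lower, and the MAPKi-treated cells 7 higher and 1 lower. Of all genes, 17.3% were called higher and 14.9% lower in DMSO, and 15.9% higher and 14.0% lower in MAPKi. The members had a median log2 change of 0.50 in DMSO and 0.68 in MAPKi, where that of all genes was −0.0036 and −0.013.

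**Figure D2:**
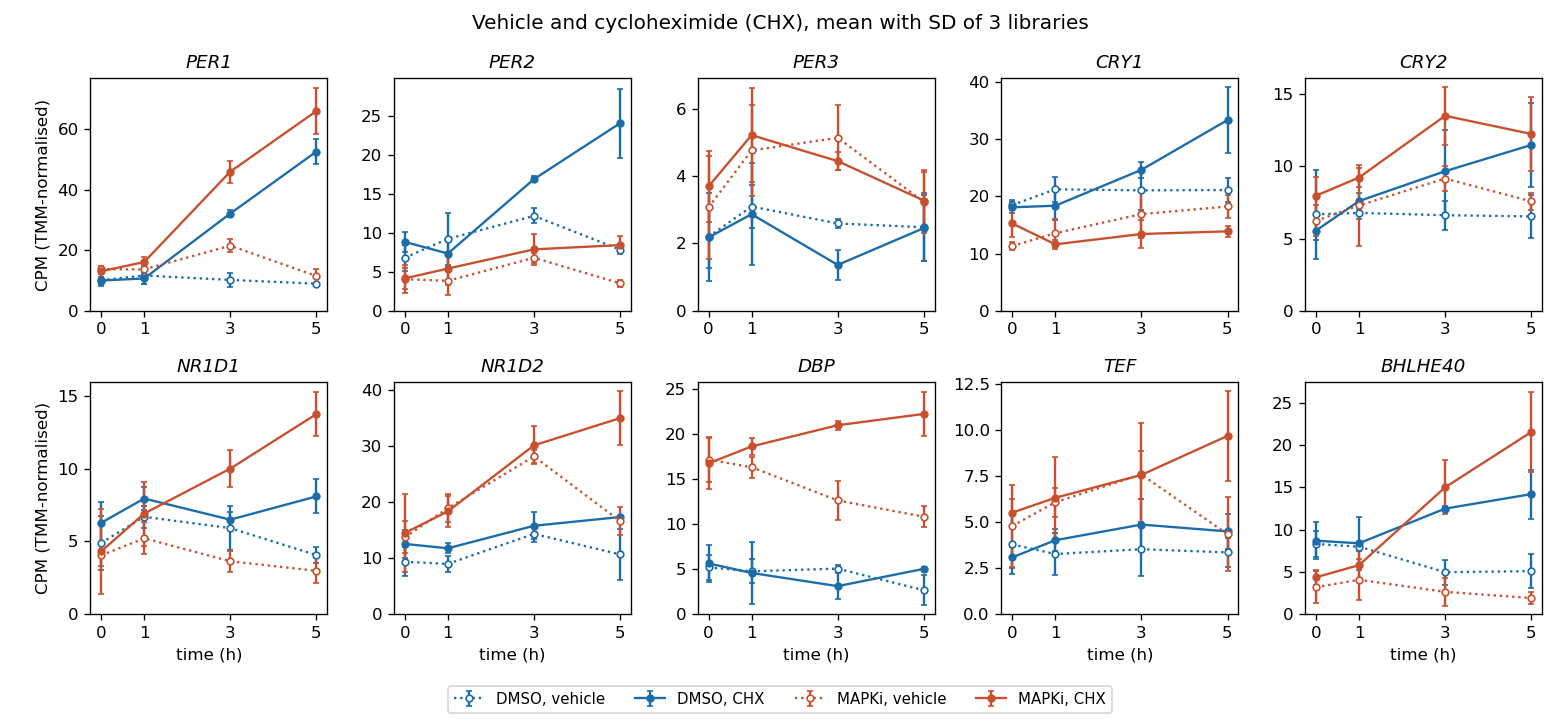
Expression in CPM (y axis, linear, scaled for each gene) against time in h (x axis) for vehicle (dotted, open points) and cycloheximide (solid, filled points), DMSO in blue and MAPKi in red, as mean with SD of 3 libraries. PER1 climbed in both pretreatments, from 10.7 CPM at 1 h to 52.7 CPM at 5 h in DMSO. PER2 was also called higher in both and reached 24.1 CPM in DMSO and 8.45 CPM in MAPKi, and its log2 change was not called different between them (−0.30, edgeR adjusted p 0.608).

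PER1 showed the clearest response. In DMSO it had 30.9, 32.5 and 33.2 CPM after 3 h of cycloheximide against 11.7, 11.6 and 7.40 CPM in vehicle. At 5 h it had 57.1, 49.3 and 51.6 CPM against 8.80, 8.77 and 9.32 CPM, and the log2 change over both times was 2.10 ± 0.17 (adjusted p 4.27e-18). In MAPKi it reached 74.5, 60.2 and 63.6 CPM at 5 h against 13.4, 12.1 and 8.95 CPM (1.82 ± 0.16, adjusted p 6.89e-16). The cycloheximide libraries were far above vehicle in both pretreatments, and the test of the difference between the pretreatments made no call (−0.29 ± 0.23, adjusted p 0.493).

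PER2 rose in DMSO, with 25.0, 28.1 and 19.3 CPM at 5 h against 7.68, 7.67 and 8.26 CPM (log2 change 1.04 ± 0.21 over 3 and 5 h, adjusted p 2.99e-05). In MAPKi it had 8.21, 7.41 and 9.73 CPM against 3.18, 3.99 and 3.42 CPM (0.73 ± 0.22, adjusted p 0.00592), a call that had an adjusted p of 0.0504 without replicate 1 (0.00355 to 0.0504 over the 8 alternatives). PER3, in contrast, was not called in either pretreatment (−0.45 ± 0.32 and −0.09 ± 0.28). It stayed among the lowest of the members, with 3.02, 1.32 and 3.02 CPM in DMSO and 3.36, 2.38 and 4.07 CPM in MAPKi after 5 h of cycloheximide.

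The cryptochromes differed from each other. CRY2 rose in both pretreatments (0.67 ± 0.19, adjusted p 0.00277 in DMSO, and 0.63 ± 0.18, adjusted p 0.00366 in MAPKi), with 14.2, 11.8 and 8.43 CPM in DMSO at 5 h against 8.13, 5.21 and 6.26 CPM. The DMSO call was lost without replicate 2 (adjusted p 0.123) and the MAPKi call without replicate 3 (0.0577), while the other alternatives gave values down to 0.00205 and 0.00207. CRY1 rose in DMSO, from 22.1, 18.6 and 22.6 CPM in vehicle to 28.2, 39.7 and 32.2 CPM at 5 h (0.44 ± 0.13, adjusted p 0.00636), a call lost without replicate 3 (0.0771, the highest of 8 alternatives, of which the lowest was 0.0043). In MAPKi CRY1 was lower with cycloheximide on the CPM scale, at 14.1, 14.7 and 12.8 CPM against 16.9, 20.6 and 17.2 CPM at 5 h (−0.37 ± 0.13, adjusted p 0.0279), and this call had adjusted p of 0.0946, 0.0831 and 0.176 without replicates 1, 2 and 3 (0.0223 to 0.176 over the 8 alternatives). Scaled on the stable genes described below, CRY1 in MAPKi at 5 h was at 166% ± 15.8 of its 0 h vehicle mean with cycloheximide. Vehicle was at 167% ± 13.6 (SD, n = 3), so the fall at 5 h depended on the scaling. At 3 h the values were 135% ± 27.7 and 145% ± 38.6, and that scale was not tested for cycloheximide alone. The difference between the pretreatments was itself called (−0.81 ± 0.19, adjusted p 0.00132), which was lost without replicate 3 (0.0636; 4.32e-04 to 0.0636 over the alternatives).

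NR1D1 was called in MAPKi, where it had 14.3, 12 and 14.9 CPM after 5 h of cycloheximide against 3.90, 2.79 and 2.21 CPM in vehicle (1.83 ± 0.26, adjusted p 2.33e-08). In DMSO the values were 7.32, 9.43 and 7.51 CPM against 3.39, 4.38 and 4.39 CPM, and the change over 3 and 5 h was 0.56 ± 0.26 (adjusted p 0.0938). The libraries at 5 h did not overlap in either pretreatment. The difference between pretreatments was 1.27 ± 0.37 (adjusted p 0.0129) and was lost without replicate 1 (0.105) or 3 (0.146; 8.85e-04 to 0.146 over the alternatives). THRA, on the opposite strand, fell in DMSO (−0.68, adjusted p 9.91e-08) and had −0.18 (0.135) in MAPKi, a difference of 0.50 (0.00824) in the direction of NR1D1. NR1D2 rose by 0.42 ± 0.16 (adjusted p 0.0369) in DMSO and 0.58 ± 0.15 (0.00146) in MAPKi, with 39.8, 30.2 and 35.1 CPM at 5 h against 13.7, 17.7 and 18.4 CPM in the latter. The DMSO call was lost without replicate 2 (0.300) or 3 (0.201; 0.0111 to 0.300 over the alternatives).

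BHLHE40 gave the largest response of the members in MAPKi. At 5 h it had 16.5, 22.3 and 25.8 CPM with cycloheximide and 1.16, 2.53 and 2.01 CPM in vehicle (2.98 ± 0.29 over 3 and 5 h, adjusted p 9.04e-14). In DMSO it had 13, 12.1 and 17.5 CPM against 5.19, 3.01 and 7.06 CPM (1.38 ± 0.27, adjusted p 3.08e-05). The libraries were apart in both, and the response was larger in MAPKi by 1.60 ± 0.40 (adjusted p 0.00291), a call that held in all 8 alternatives (2.56e-04 to 0.0494). Its mean level with cycloheximide at 5 h was thus 21.6 ± 4.70 CPM in MAPKi and 14.2 ± 2.90 CPM in DMSO (SD, n = 3), the reverse of the order in vehicle. These cycloheximide libraries overlapped, with 16.5 CPM in MAPKi under 17.5 CPM in DMSO, and the groups were not tested against each other.

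DBP was higher with cycloheximide in MAPKi, at 20.4, 21.4 and 24.9 CPM at 5 h against 10.3, 9.98 and 12.2 CPM in vehicle (0.88 ± 0.20, adjusted p 3.37e-04). In DMSO it had 5.25, 5.04 and 4.76 CPM against 2.03, 1.37 and 4.53 CPM, with a change over 3 and 5 h of 0.05 ± 0.26 and no call. From 0 to 5 h DBP in vehicle itself changed by −0.66 ± 0.29 in MAPKi and −0.87 ± 0.37 in DMSO, neither called (edgeR, adjusted p 0.241 and 0.325). The difference between the pretreatments was 0.83 ± 0.33 with an adjusted p of 0.0913, which DESeq2 called (0.0410; 0.0400 to 0.744 over the alternatives). SPHK2 moved by 0.30 (adjusted p 0.109) in DMSO and 0.42 (0.0147) in MAPKi. TEF had changes of 0.43 ± 0.29 and 0.60 ± 0.27 (adjusted p 0.280 and 0.0823) and was not called.

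Of the 3 members whose response to cycloheximide was called different between the pretreatments, BHLHE40 and NR1D1 were higher and CRY1 lower in MAPKi. Over all genes, 5.01% were called higher and 5.95% lower in this test. Genes of the wider list are named from here on with their values seen. In that list, 3 of 15 rose (17.3% of all genes) and 1 fell (14.9%) in DMSO, and 4 rose in MAPKi (15.9%). NFIL3 rose in both (1.29 and 0.58), BHLHE41 rose in MAPKi (0.87), and ARNTL rose in DMSO (1.19, adjusted p 1.48e-05) with 0.15 (0.627) in MAPKi. The difference was called for ARNTL (−1.04, adjusted p 0.0136), NFIL3 (−0.70, 0.0499), CSNK1D (−0.46, 8.88e-04) and BHLHE41 (0.76, 3.03e-04). BHLHE40 and BHLHE41, apart at 0 h, both had a larger response in MAPKi.

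Triptolide was used to ask how long the messengers last once transcription stops. For these comparisons counts were scaled on 36 genes taken as stable by the thresholds of the study's methods, applied to the triptolide arm: their CPM with triptolide at 3 h and at 5 h was at least 1.1 times that of vehicle at 0 h in every replicate. The scaled values are called normalized counts. None of the members is among the 36. After 1 h no member was called against vehicle at 0 h in either pretreatment (edgeR, 0 with an unadjusted p under 0.05, 0 by DESeq2; 0.883% of all genes in DMSO and 1.61% in MAPKi). Over 3 and 5 h, 9 of 10 members fell in DMSO and 9 in MAPKi, while PER3 was not called in either. Of all genes, 48.7% were called lower in DMSO and 56.1% in MAPKi. The median log2 change was −1.36 over the members and −0.47 over all genes in DMSO, and −1.31 and −0.59 in MAPKi.

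**Figure D3:**
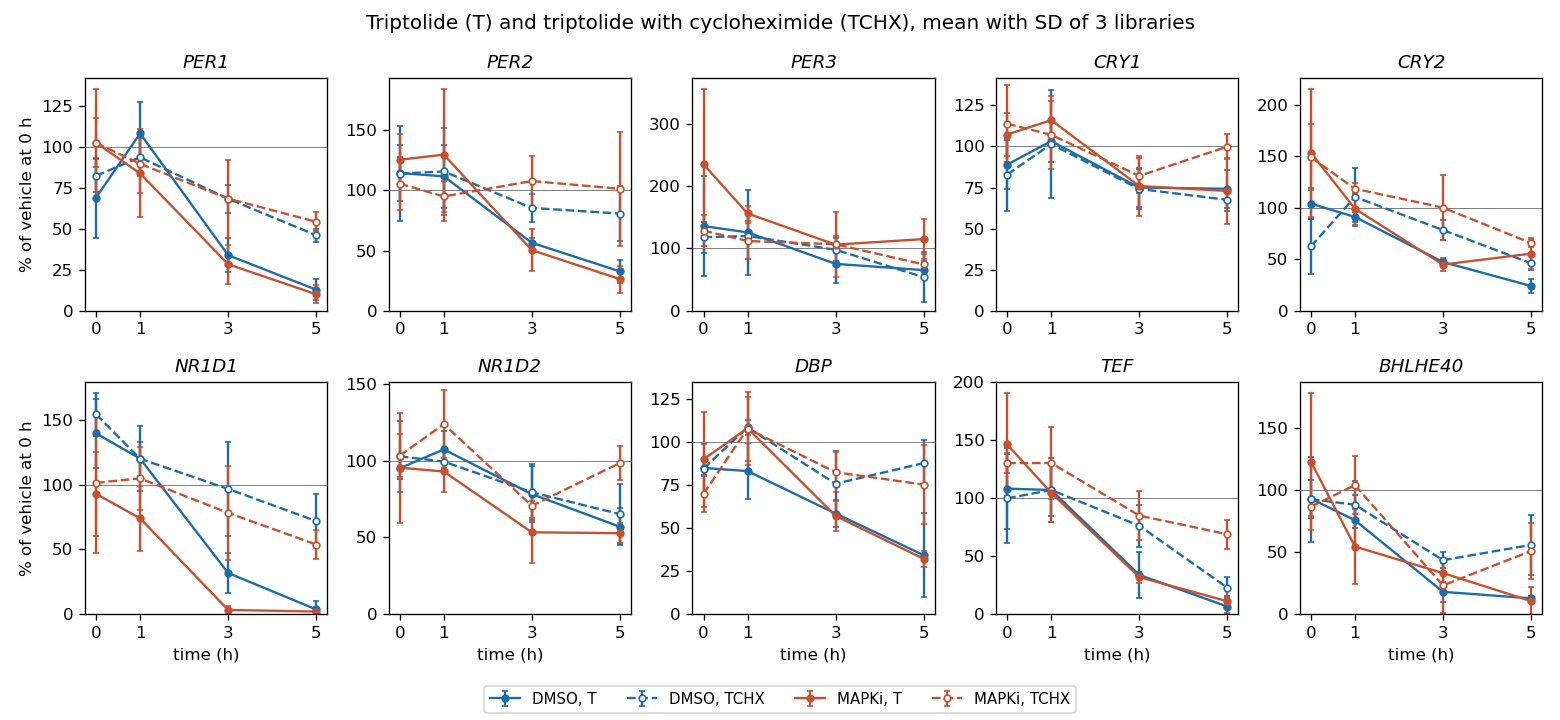
Normalized counts as a percent of the vehicle mean at 0 h (y axis, linear, scaled for each gene; the grey line is 100%) against time in h (x axis) for triptolide (solid, filled points) and triptolide with cycloheximide (dashed, open points), DMSO in blue and MAPKi in red, as mean with SD of 3 libraries. After 5 h of triptolide PER1 was at 12.9% in DMSO and 10.1% in MAPKi, and with cycloheximide added at 46.1% and 54.4%.

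NR1D1 fell furthest. In DMSO it had 53.2, 34.2 and 22.3 normalized counts at 0 h, 9.48, 18.0 and 7.42 after 3 h and 0, 3.92 and 0 after 5 h. Pooled over the libraries, 38.7% was left at 3 h (exact 95% interval 27.0 to 54.9, counting error only) and 3.61% at 5 h (1.14 to 8.72), the last from 5 raw counts. In MAPKi, which began at 34.6, 23.8 and 30.2 normalized counts, 3.24% was already left at 3 h (0.862 to 8.60, 4 raw counts) and 2.44% at 5 h (0.494 to 7.39, 3 raw counts). At 3 h these counting intervals were apart. The fall over both times was not called different between pretreatments (adjusted p 0.222), and the fitted fold of a gene with so few counts depends on the prior count. THRA changed by −0.34 in DMSO and −0.54 in MAPKi on the log2 scale.

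TEF and BHLHE40 also came close to the floor. TEF had 32.3, 14.8 and 36.4 normalized counts at 0 h in DMSO and 0.735, 4.70 and 0 after 5 h, where 5.73% was left (2.23 to 12.3), and 10.2% (5.52 to 17.7) in MAPKi. BHLHE40 went from 56.5, 55.9 and 70.6 to 6.61, 7.84 and 8.75 normalized counts in DMSO, or 12.4% (8.26 to 18.0), and 12.2% (5.78 to 23.4) was left in MAPKi. All libraries at 5 h were below all libraries at 0 h for both genes and pretreatments. Every alternative kept the calls of NR1D1, TEF and BHLHE40.

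PER1 had 62.9, 76.4 and 84.0 normalized counts at 0 h in DMSO, 29.4, 30.0 and 16.5 after 3 h and 10.3, 14.1 and 4.38 after 5 h (log2 change −2.28 ± 0.23 over 3 and 5 h, adjusted p 8.99e-14). In MAPKi it went from 96.7, 108 and 97.4 to 21.8, 21.6 and 42.5 and then 15.0, 4.02 and 11.6 (−2.61 ± 0.23, adjusted p 4.35e-17). The order 0, 3 and 5 h held without overlap in both. PER2 fell less, to 32.7% ± 9.39 in DMSO and 26.3% ± 11.2 in MAPKi after 5 h (SD, n = 3), with log2 changes of −1.20 ± 0.28 and −1.41 ± 0.31.

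PER3 had 12.9, 9.13 and 26 normalized counts at 0 h and 8.82, 9.41 and 13.1 after 5 h of triptolide in DMSO (−0.56 ± 0.39 over 3 and 5 h, adjusted p 0.230). In MAPKi the values were 35.6, 18.5 and 13.6 against 28.5, 17.8 and 31.6 (0.11 ± 0.36, adjusted p 0.812), so that the libraries overlapped. When the triptolide arm at 0 h served as the start, PER3 was called lower in both (−0.90 and −1.03, adjusted p 0.0476 and 0.0103, the lowest of 11 alternatives that reached 0.873 and 1). That arm had 44.1, 83.7 and 31.5 normalized counts in MAPKi at 0 h. Which start is right for PER3 was not tested. UTS2, opposite to its 3′ end, did not pass the filter.

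CRY2 was at 24.1% ± 7.04 in DMSO and 55.6% ± 15.3 in MAPKi after 5 h (SD, n = 3), with changes of −1.51 ± 0.25 (adjusted p 2.91e-07) and −1.0 ± 0.24 (3.04e-04). CRY1 had 142, 130 and 137 normalized counts at 0 h and 104, 115 and 84.4 after 5 h in DMSO, and 86.5, 87.3 and 75.0 against 42.0, 65.5 and 73.8 in MAPKi. It was called lower in both (−0.42 ± 0.17, adjusted p 0.0336, and −0.43 ± 0.18, adjusted p 0.0366), but with TMM scaling its change was 0.04 and 0.19. The DMSO call was lost without replicate 1 (0.201) or 3 (0.177) and the MAPKi call without replicate 1 (0.162) or 2 (0.168), and the alternatives ran from 0.0228 to 0.885 and from 0.0133 to 0.800. Relative to the median of all genes CRY1 stood at 0.05 in DMSO and 0.16 in MAPKi.

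NR1D2 changed by −0.56 ± 0.22 (adjusted p 0.0294) in DMSO and −0.92 ± 0.21 (1.16e-04) in MAPKi, with 56.9% ± 12 and 52.7% ± 6.67 (SD, n = 3) present at 5 h. Its DMSO call was lost without replicate 2 (0.468; 0.0209 to 0.776 over the alternatives). DBP was at 34.2% ± 24.2 and 32.1% ± 4.63 (SD, n = 3), with changes of −1.20 ± 0.30 and −1.22 ± 0.25 (adjusted p 4.41e-04 and 1.52e-05), and SPHK2 changed by −0.86 and −0.83.

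The fall was called different between MAPKi and DMSO for no member (edgeR, 1 with an unadjusted p under 0.05, which was NR1D1, and 0 by DESeq2; 3.17% of all genes were called). TMM scaling moved the median of all genes up by 0.46 in DMSO and 0.62 in MAPKi and left 7 and 5 members called, with CRY1 and NR1D2 lost in DMSO and CRY1, CRY2, NR1D2 and DBP lost in MAPKi. With it, 1762 genes were higher and 3146 lower in DMSO and 2782 and 3170 in MAPKi, in place of 195 and 7273, and 191 and 8385. Relative to the median gene, 9 members in DMSO and 8 in MAPKi fell more under either scaling. In the wider list, scaled on the stable genes, 10 of 15 fell in DMSO (48.7% of all genes) and 11 in MAPKi (56.1%). NFIL3 fell most, from 68.6 ± 8.43 to 2.23 ± 1.91 normalized counts at 5 h in DMSO and from 239 ± 39.6 to 3.65 ± 3.40 in MAPKi (SD, n = 3), and HLF was called higher in MAPKi from a start of 0 counts, for which no fold is given. The decay differed between pretreatments for NFIL3 (−1.90, adjusted p 0.0309), BHLHE41 (−0.84, 0.00834), CLOCK (−0.51, 0.0312) and CSNK1D (−0.46, 0.0422).

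The last comparison asked whether the loss after triptolide depended on translation, by adding cycloheximide. Over 3 and 5 h, 7 of 10 members were higher with both blockers than with triptolide alone in DMSO, and 7 in MAPKi, and none was lower. Of all genes, 28.4% were called higher in DMSO and 41.4% in MAPKi. The median log2 difference was 0.94 over the members and 0.23 over all genes in DMSO, and 0.86 and 0.34 in MAPKi. With TMM scaling 7 and 5 members were called, and all genes split into 2363 higher and 834 lower in DMSO and 2919 and 2020 in MAPKi, in place of 4247 and 70, and 6194 and 80.

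NR1D1 had 33.8, 26.7 and 18.4 normalized counts with both blockers at 5 h in DMSO, where triptolide alone left 0, 3.92 and 0. In MAPKi it had 19.6, 13.3 and 14.7 against 0, 1.72 and 0. This was 71.9% ± 21.0 and 53.8% ± 11.2 of the start (SD, n = 3), and adjusted p were 1.28e-10 and 1.96e-13. THRA changed by −0.03 and 0.01.

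PER1 had 35.1, 31.0 and 36.9 normalized counts with both blockers at 5 h against 10.3, 14.1 and 4.38 with triptolide in DMSO (1.42 ± 0.21, adjusted p 5.10e-08), and 58.9, 48.1 and 57.4 against 15.0, 4.02 and 11.6 in MAPKi (1.90 ± 0.20, adjusted p 3.71e-13). PER2 had 53.7, 31.0 and 38.0 normalized counts with both blockers in DMSO and 17.6, 27.8 and 45.4 in MAPKi, with differences of 0.97 ± 0.23 and 1.46 ± 0.26 over triptolide. Neither gene's libraries overlapped between the arms at 5 h. With both blockers every PER1 library at 5 h was below every library at 0 h, whereas with cycloheximide alone, on the CPM scale, every one was above.

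At 5 h with both blockers TEF stood at 4.64, 5.17 and 9.22 normalized counts after DMSO and at 29.1, 21.4 and 21.4 after MAPKi, or 22.8% ± 9.01 and 68.8% ± 12.7 of the start (SD, n = 3). The differences from triptolide were 1.49 ± 0.40 (adjusted p 0.00232, lost without replicate 3 at 0.138, with 3.88e-04 to 0.138 over the alternatives) and 2.02 ± 0.33 (2.09e-07). BHLHE40 was called in DMSO (1.68 ± 0.32, adjusted p 1.33e-05), with 48.4, 18.9 and 34.6 against 6.61, 7.84 and 8.75 normalized counts at 5 h. In MAPKi it had 16.9, 6.37 and 12 against 0, 5.17 and 2.11 (0.84 ± 0.43, adjusted p 0.119), and was called without replicate 2 (0.0123, against up to 0.638 in the other alternatives). DBP was higher by 0.91 ± 0.25 and 0.88 ± 0.21, where SPHK2 had 0.59 and 0.43, and CRY2 by 0.85 ± 0.21 and 0.70 ± 0.20, the last lost without replicate 2 (0.150; 0.00274 to 0.20 over the alternatives). NR1D2 was called in MAPKi alone (0.66 ± 0.18, adjusted p 0.00124, against 0.12 ± 0.18 in DMSO, with the difference not called at an adjusted p of 0.221), and CRY1 and PER3 in neither.

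No member was called different between the pretreatments in this effect (edgeR, 2 with an unadjusted p under 0.05, NR1D1 and NR1D2, and 0 by DESeq2; 7.11% of all genes were called). The study expresses the same contrast as the TDD index, the normalized count with both blockers minus that with triptolide, divided by that of vehicle at 0 h with the same replicate number, averaged here over 3 and 5 h. NR1D1 had the highest index of the members in DMSO, 0.685 ± 0.0773, and 0.625 ± 0.159 in MAPKi (SD, n = 3). PER1 had 0.342 ± 0.114 and 0.426 ± 0.146, PER2 0.407 ± 0.122 and 0.891 ± 0.788, and CRY1 −0.04 ± 0.16 and 0.17 ± 0.02. No index was called different between MAPKi and DMSO (limma, 0 members with an unadjusted p under 0.05 and 0% of all 11419 genes called), and an ordinary linear model per gene called 11 genes but no member. At an unadjusted p under 0.05 (limma), 1509 of all genes had a higher index in MAPKi and 202 a lower one. That split was not counted under other scalings. In the edgeR test of the pretreatment difference, 1019 genes were called higher and 44 lower as reported, and 420 and 129 with TMM. The median log2 difference of all genes was 0.13 as reported and −0.02 with TMM. The study's own classes of changed TDD index used an unadjusted p-value, so its counts are not comparable with the adjusted calls here. In the wider list 6 of 15 rose with added cycloheximide in DMSO (28.4% of all genes) and 8 in MAPKi (41.4%). NFIL3 gained most, to 28.0 ± 15.6 and 59.9 ± 27.8 normalized counts at 5 h (SD, n = 3), and the gain differed between pretreatments for BHLHE41 (0.68, adjusted p 0.00520) and CSNK1D (0.37, 0.0281).

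**Figure D4:**
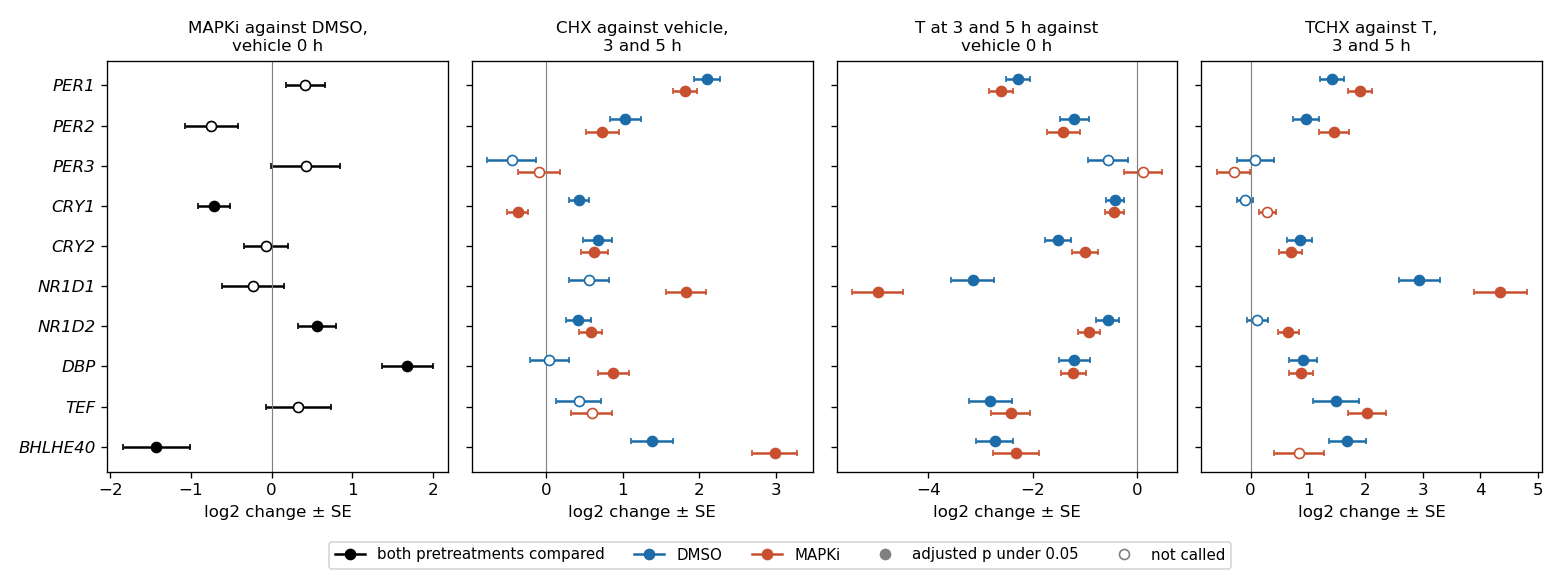
Log2 change with SE (x axis, scaled for each panel) of the 10 clock genes (rows) in 4 comparisons, in black for MAPKi against DMSO and otherwise in blue for DMSO and red for MAPKi, filled where the adjusted p is under 0.05. PER1 is filled at 2.10 and 1.82 in the cycloheximide panel and at −2.28 and −2.61 in the triptolide panel, whereas PER3 is open in every panel.

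Over the 32 group means the members ranked differently. The highest mean of PER1 (66.1 ± 7.50 CPM), NR1D1, NR1D2 (35.0 ± 4.83 CPM), DBP, TEF (9.67 ± 2.44 CPM) and BHLHE40 was in MAPKi with cycloheximide at 5 h, and that of PER2 and CRY1 (33.4 ± 5.85 CPM; SD, n = 3 each) in DMSO with cycloheximide at 5 h. CRY1 and NR1D2 moved least, with the highest group mean 3.04 and 4.62 times the lowest. As a description over 32 group means that share scaling and the same treatments, PER1 and CRY2 had a Pearson r of 0.86 and NR1D1 and BHLHE40 of 0.81, whereas CRY1 and DBP had −0.75. Of the other genes, the one most like PER1 was ZNF644 (Pearson r = 0.97 over log2 CPM of the 32 groups), and NR1D1 was most like ZNF503 (0.96), DBP most like PPARGC1A (0.96), PER2 most like RBM22 (0.95) and TEF most like ZNF133 (0.94). BHLHE40 was nearest to SNAI1 (0.92), NR1D2 to KLF7 (0.92), CRY1 to ZNF207 (0.91), CRY2 to ZBTB5 (0.90) and PER3 to LOC283788 (0.86).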

How the data were processed

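Counts per gene were deposited by the authors as raw, unnormalized read counts of 96 QuantSeq libraries of A375 cytoplasmic RNA; the submitters' notes name fastp 0.20.1, HISAT2 2.2.1 and HTSeq 0.13.5, while strand setting and molecular identifiers are not given in the sources used here. Totals ran from 2381351 to 12520154 counts, and intervals cover counting error only.

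Groups came from the sample labels. Counts of 14948 genes past filterByExpr were fitted in all 32 groups with edgeR 4.0.16 (quasi-likelihood test, two-sided, Benjamini-Hochberg over all genes, R 4.3.3). TMM scaled comparisons without triptolide. Triptolide comparisons used median-of-ratios factors of 36 stable genes, whose CPM was above 0.2 in vehicle at 0 h and, with triptolide at 3 and 5 h, at least 1.1 and under 10 times that start in every replicate. The TDD index was tested with limma 3.58.1 on 11419 genes with at least 10 normalized counts at 0 h. Alternatives were DESeq2 1.42.0, other scalings, no filter, a fit on the compared groups alone, a replicate block, other start levels or times, and leaving out each replicate. Scripts were tested on simulated data.

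All 10 members are described, up to 8 called genes of a wider list of 18 are named at 0 h, and the nearest gene of each member is named by Pearson r. Members and lists were chosen with earlier results of these data known.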

Additional observations from a re-analysis of the deposited data

Results flagged for a closer look

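The response to cycloheximide over 3 and 5 h differed between MAPKi and DMSO for 3 clock genes by the test of the difference itself (edgeR quasi-likelihood test). BHLHE40 had a log2 difference, MAPKi minus DMSO, of 1.60 (adjusted p 0.00291), and NR1D1 one of 1.27 (adjusted p 0.0129). For CRY1 it was −0.81 (adjusted p 0.00132), from a change of 0.44 in DMSO to −0.37 in MAPKi with TMM. On the stable-gene scale, not tested here, CRY1 in MAPKi at 5 h was at 166% of its 0 h vehicle mean with cycloheximide and 167% in vehicle. In DMSO it was at 208% and 117%. Without replicate 3, BHLHE40 alone was called.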

How the results depend on the processing

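Of the counts of called clock genes, 164 alternatives stayed within 1.5 times the reported count and 10 did not. For MAPKi against DMSO at 0 h, 4 members were called as reported, 10 with all 4 arms and 9 averaged over the 4 vehicle times, and 1 to 4 without one replicate. For vehicle at 5 h in MAPKi it was 1 as reported, 2 with the mean of 3 and 5 h, 0 with no filter and 0 without any one replicate. The difference in cycloheximide response had 1 to 3 members without one replicate, and triptolide in MAPKi had 5 with TMM. Of the values of single members, 1537 kept direction and side of the threshold, 53 fell short of it and 22 passed it. A further 124, belonging to 68 comparisons of a member, were called neither as reported nor in the alternative and changed sign (log2 values from −0.84 to 0.75 in the alternatives), so these uncalled values have no settled direction. Sign changes that involved a call numbered 4, namely CRY2 at 0 h with all 4 arms (0.47), CRY1 after triptolide with TMM (0.041 in DMSO, 0.19 in MAPKi) and PER3 after triptolide in MAPKi with the triptolide arm as start (−1.03). The causes were not tested.

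Counts over all genes moved by more than 1.5 times as follows. At 0 h there were 6860 calls, 10404 with all arms and 10328 over the vehicle times. The vehicle change to 5 h in DMSO had 160, 242 by DESeq2, 410 with no filter, 81 in the compared groups alone and 43 to 78 without one replicate. In MAPKi it had 507, 268 at 3 h and 118 to 184 without one replicate. The difference between these had 106, 215 by DESeq2, 395 with no filter, 44 in the groups alone, 59 over 3 and 5 h, 43 at 3 h and 6 to 7 without one replicate. Cycloheximide at 1 h had 12 in DMSO, 38 with no filter, 7 in the groups alone and 4 and 7 without replicates 1 and 3, and 12 in MAPKi, 34 by DESeq2, 190 with no filter and 2 to 28 without one replicate. The difference in cycloheximide response fell from 1638 to 790 and 802 without replicates 1 and 3. Triptolide at 1 h had 132 in DMSO, 67 in the groups alone, 426 with genes stable in either arm and 44 to 55 without one replicate, and 241 in MAPKi, 108 in the groups alone, 412 with the triptolide arm as start, 85 with TMM, 117 with total counts and 54 to 102 without one replicate. Triptolide at 3 and 5 h had 7468 in DMSO, 4908 with TMM and 4602 with total counts, and 8576 in MAPKi, 5311 with total counts. The difference in decay had 474, 147 in the groups alone and 114 to 295 without one replicate. TMM split it into 132 higher and 203 lower, in place of 62 and 412. The difference in the effect of added cycloheximide had 1063, 519 in the groups alone, 549 with TMM and 385 to 674 without one replicate. The TDD index had 0, 1 with no filter and 11 by an ordinary linear model.

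For same-numbered replicates, 11 of 63 correlations of their deviations from the group means were over 0.1 (range −0.15 to 0.28). Replicates with different numbers were not compared, so this check cannot decide whether the numbers pair the libraries. The edgeR fits as reported left the numbers out. With the replicate block, 5 members were called at 0 h, PER2 being added (−0.77, adjusted p 0.0351), and the number of called members was as reported in the other comparisons. The TDD index tested without the replicate term in its model gave 0, with each index still formed within a replicate number. Scaling on genes stable in both blocker arms was not run, since 0 such genes were counted in every library. Depth limited NR1D1, TEF and BHLHE40 after triptolide, where libraries held from 0 counts up.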
